A study of Mus musculus with 2 samples.

Results

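The genes described here are the early growth response family Egr1, Egr2, Egr3 and Egr4 with Nab1 and Nab2, which encode the NGFI-A binding proteins. They are 6 of the 21938 protein-coding genes of the GENCODE M21 annotation of mm10, taken as a list of named genes. For each gene, its body with 50 kb on each side was taken as its window, and the bases within 500 bases of any annotated transcript start as its promoter. The assay was DNase-seq, which maps open chromatin by where the enzyme DNase I cuts, on left cerebral cortex of adult female B6CASTF1/J mice aged 18 to 20 months. These mice are first-generation hybrids of 2 inbred strains, and all tissue was of this 1 group, with no treatment named in the labels. The 2 libraries are numbered in the labels as biological replicates 1 and 2 and carry 1 donor identifier. Nothing in the labels says that they came from separate animals, so the spread between them may be technical.

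EGR proteins are transcription factors with zinc fingers that read a GC-rich element, written here as GCGNGGGCG. Their genes are immediate early genes: in neurons, synaptic activity switches them on within minutes without new protein synthesis, through serum response factor (SRF) bound to CArG boxes with its ETS-family partners, and through CREB bound to cyclic AMP response elements (CRE). Egr1 and Egr3 are used widely as marks of recently active neurons, Egr2 is also the master regulator of myelination in Schwann cells, and NAB1 and NAB2 bind EGR proteins and repress their activity, NAB2 being itself induced by EGR factors in a feedback loop.

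The deposited peaks that lie over these promoters are shown first as sequence, because the letters under the signal differ between the genes. Letters are those of the RefSeq copy of GRCm38.p6 (mm10) and not of the hybrid animals, and run 5′ to 3′ on the strand of the gene. In the promoter peaks of Egr2 (chr10:67537381-67537580 and chr10:67537661-67537860, + strand, in an intron of its longer transcripts), capitals mark CArG matches and the letters ACGTCAC on either strand, a 7-letter part of a CRE-like element that was looked for after the Egr promoters had been read.
Egr2 upstream promoter peak: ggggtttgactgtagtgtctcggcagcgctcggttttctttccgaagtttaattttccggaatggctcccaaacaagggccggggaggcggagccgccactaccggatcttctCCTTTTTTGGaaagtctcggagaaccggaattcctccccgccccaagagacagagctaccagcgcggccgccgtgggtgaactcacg
Egr2 downstream promoter peak: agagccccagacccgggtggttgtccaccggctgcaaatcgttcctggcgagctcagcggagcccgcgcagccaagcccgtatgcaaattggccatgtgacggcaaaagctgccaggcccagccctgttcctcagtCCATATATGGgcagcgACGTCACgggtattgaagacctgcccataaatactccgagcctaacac

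In the downstream Egr2 peak the CArG box was followed, after 6 bases, by ACGTCAC, and the Egr3 promoter peak held a CArG match and ACGTCAC at the same spacing.
The CArG box lay 67 bases before the Egr2-201 start and 355 bases before the first Egr3 start, so the arrangement lay at different distances from the annotated starts. In Egr2 the ACGTCAC of this arrangement lay in a footprint, a short run of bases protected from cutting inside a peak, in both libraries, and in Egr3 in library 2 alone. The other match of the Egr3 peak, 392 bases before the start, lay in a footprint of both libraries.

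The Egr4 promoter peak (chr6:85513590-85513860, − strand, up to the base next to the only start) held no match to the EGR, CArG or CRE motif. Capitals mark the bases that lay in footprints of both libraries. They fell in 4 runs, the longest of which spelled the CRE-like letters and their flanks.
Egr4 promoter peak: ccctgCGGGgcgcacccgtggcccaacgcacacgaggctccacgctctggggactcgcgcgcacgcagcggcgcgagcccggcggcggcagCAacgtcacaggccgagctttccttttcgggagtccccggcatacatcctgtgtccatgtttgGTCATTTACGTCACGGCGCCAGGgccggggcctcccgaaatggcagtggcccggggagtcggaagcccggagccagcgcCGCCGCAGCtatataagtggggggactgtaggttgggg

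EGR motif matches stood in the promoters of the corepressor genes. In the strongest Nab2 promoter peak (chr10:127668801-127668980, − strand) the match in capitals lay in a footprint of both libraries, and so did the match at the downstream Nab2 starts. Nab1 carried 5 matches in 1 start window. In each library 2 of them had their middle in a footprint, and those not shown here had it in none. Of the 3 shown (chr1:52500538-52500567, chr1:52500570-52500599 and chr1:52500271-52500300, − strand, all in the 5′ UTR of Nab1), the first lay in a footprint of both libraries, the second in library 1 alone and the third in library 2 alone.
Nab2 strongest promoter peak: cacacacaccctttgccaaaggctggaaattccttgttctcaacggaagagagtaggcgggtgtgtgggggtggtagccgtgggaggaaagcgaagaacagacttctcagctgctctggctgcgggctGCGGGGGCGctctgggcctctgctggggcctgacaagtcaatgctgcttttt
Nab1 site 1: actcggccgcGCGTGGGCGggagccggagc
Nab1 site 2: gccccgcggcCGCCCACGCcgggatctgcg
Nab1 site 3: ctcgatgggcGCGGGGGCGtcccggccgcc

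An EGR match was also found 2.2 kb upstream of Egr3, in a peak away from any start whose signal overlapped that of the Egr3 promoter. The match lay in a footprint of both libraries.

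Each of the 6 genes had at least 1 promoter peak in each library; 63.6% of protein-coding genes had one in both. The deposited peak signal has no stated unit or scaling and is compared here as listed, by the strongest promoter peak of a gene. Because the tissue was measured in bulk, a peak open in fewer cells and a peak less open in each cell cannot be told apart.

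Egr1 (ENSMUSG00000038418.7) had the strongest promoter of the 6, with a signal of 6.72 in library 1 and 6.88 in library 2, a mean of 6.80 ± 0.111 (SD, n = 2). Egr4 (ENSMUSG00000071341.4) followed with 4.71 and 4.38, a mean of 4.54 ± 0.234. Egr3 (ENSMUSG00000033730.4) reached 4.27 and 4.38, a mean of 4.33 ± 0.0780. Egr1 thus stood above all the others in both libraries, while Egr4 and Egr3 overlapped between libraries and were not separated beyond their spread. Nab2 (ENSMUSG00000025402.12) had 3.32 and 2.93, a mean of 3.13 ± 0.277. Egr2 (ENSMUSG00000037868.15) had 2.65 and 2.98, a mean of 2.82 ± 0.229, a range that overlapped that of Nab2. Nab1 (ENSMUSG00000002881.14) was lowest, with 1.71 and 1.70, a mean of 1.70 ± 0.00882, and lay below every other member in both libraries. This order holds for the strongest single peak. With all promoter peaks of a gene summed, Egr1 had 19.7, Nab2 10.3, Egr2 8.59, Egr3 7.89, Egr4 5.31 and Nab1 2.94. Egr4 then ranked below every member but Nab1. Peaks of a library that overlap each other, as at Egr1, Egr3 and Nab2, were each counted in full. The place of Nab2 above Egr2 rests on such overlaps, and the sums also rise with the number of annotated starts.

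The 13956 protein-coding genes whose promoter was open in both libraries had medians of 3.13 (library 1) and 3.47 (library 2). The median over the 6 members was 3.80 and 3.68, a mean of 3.74 ± 0.0844. Egr1 stood at percentile 87.8 and 89.4 of these genes. Egr4 stood at 70.3 and 62.6 and Egr3 at 65.0 and 62.7, both above the median gene. Nab2 stood at 52.7 and 42.2 and Egr2 at 43.4 and 43.0, near or below it. Nab1 stood at 28.3 and 23.5, in the lower part of the range.

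**Figure D1:**
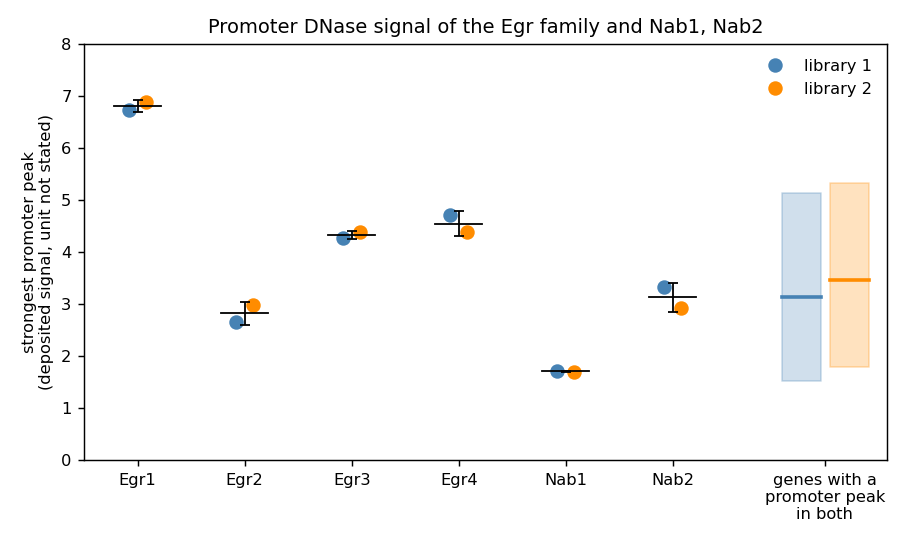
Signal of the strongest promoter peak (y axis, deposited signal, linear, from 0) of each of the 6 genes in each of the 2 libraries (points), with the mean and SD in black, and at the right the median (line) and quartiles (box) of the 13956 genes whose promoter was open in both libraries. Egr1 lies at 6.72 and 6.88, above the upper quartiles of 5.13 and 5.33, and Nab1 at 1.71 and 1.70, near the lower quartiles of 1.52 and 1.78.

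The Egr1 promoter was not 1 peak but a run of them. The gene spans chr18:34859823-34864984 on the + strand and has an annotated start at its first base (Egr1-201) and another 1384 bases downstream (Egr1-202). Its strongest peak lay 128 bases downstream of the first start, in the 5′ UTR of Egr1-201. The peak at the second start, centred 76 bases upstream of it, had a signal of 5.53 in library 1 and 5.70 in library 2, a mean of 5.62 ± 0.126. The peak between them had 3.89 and 3.56, a mean of 3.72 ± 0.232, and the peak in the coding exon, 484 bases downstream of the second start, had 1.67 and 1.65, a mean of 1.66 ± 0.0148. Each of these 4 peaks was in both libraries, and the first 3 were each above the median promoter of both libraries.

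The letters under these Egr1 peaks fell into separate kinds. In the strongest peak the only match among those searched that lay in a footprint of both libraries was to the consensus of CTCF, the insulator protein, 198 bases downstream of the first start; this consensus was added after the data were seen. The peak between the starts held 2 overlapping EGR matches, 781 and 787 bases downstream of the first start, in a footprint of both libraries. Both CRE-like matches of Egr1 were in the peak at the second start, and the one 64 bases upstream of that start lay in a footprint of both libraries. Egr1 had 5 CArG matches within 500 bases of its second start, 402, 364, 348, 100 and 78 bases upstream of it. Egr1 was the 1 gene of 21938 with as many in 1 start window, a share of 0.00456%. None of the 5 had its middle in a footprint. The 3 farthest from the start lay in no library 2 peak, where footprints were not counted, and the other 2 were each touched by a library 2 footprint.

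Egr2 (chr10:67535475-67542188, + strand) was open around its downstream starts. Its first start, Egr2-205, had a peak of 0.497 in library 1 and 0.647 in library 2. The pair of peaks 2006 and 2286 bases downstream, next to the Egr2-201 start, had 2.55 and 2.98 (mean 2.76 ± 0.306) and 2.65 and 2.74 (mean 2.70 ± 0.0591), and did not differ beyond their spread. The strongest of these was 5.34 times the peak of the first start in library 1 and 4.60 times in library 2. Each of the pair held 1 CArG match, 370 and 67 bases upstream of Egr2-201, and 75 genes (0.342%) had 2 or more in 1 start window. A peak at 686 bases had 1.04 and 1.65, and a peak at 3606 bases, beyond the last start, had 0.708 and 1.05, both higher in library 2.

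Egr3 (chr14:70077203-70082614, + strand) had 1 strong promoter peak, centred 332 bases upstream of its first start, and low peaks over the gene. The peak at 758 bases had 1.03 in library 1 and 1.31 in library 2, and that at 1638 bases had 0.878 and 1.30. Egr4 (chr6:85511121-85513589, − strand) had its signal in the single peak over its start; library 2 listed 2 more promoter peaks, of 0.974 and 0.555. The first had a library 1 partner of 0.980 that lay just outside the promoter, and the second had none. Nab1 (chr1:52457294-52500679, − strand) had its strongest peak over its first start and a peak of 0.721 and 1.06 centred 488 bases downstream.

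Nab2 (chr10:127660918-127668568, − strand) shared a part of its promoter with a neighbour. Its strongest promoter peak lay 323 bases upstream of its first start, inside an intron of Nemp1, which codes for a nuclear envelope protein and is transcribed the other way. No Nemp1 start lay within 500 bases of that peak. The peak centred 1707 bases downstream, over 2 of the 3 other Nab2 starts, had 1.76 in library 1 and 2.25 in library 2, and a Nemp1 start lay within 500 bases of it too. This peak had the most footprints of any matched promoter peak of the 6 genes, 12 in library 1 and 15 in library 2. It held an EGR match, an E-box (CACGTG) and a GGGCGG match in footprints of both libraries. Of genes with an open promoter, 3.79% had an E-box in a footprint of both libraries. The signal of this Nab2 peak cannot be assigned to 1 of the 2 genes.

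**Figure D2:**
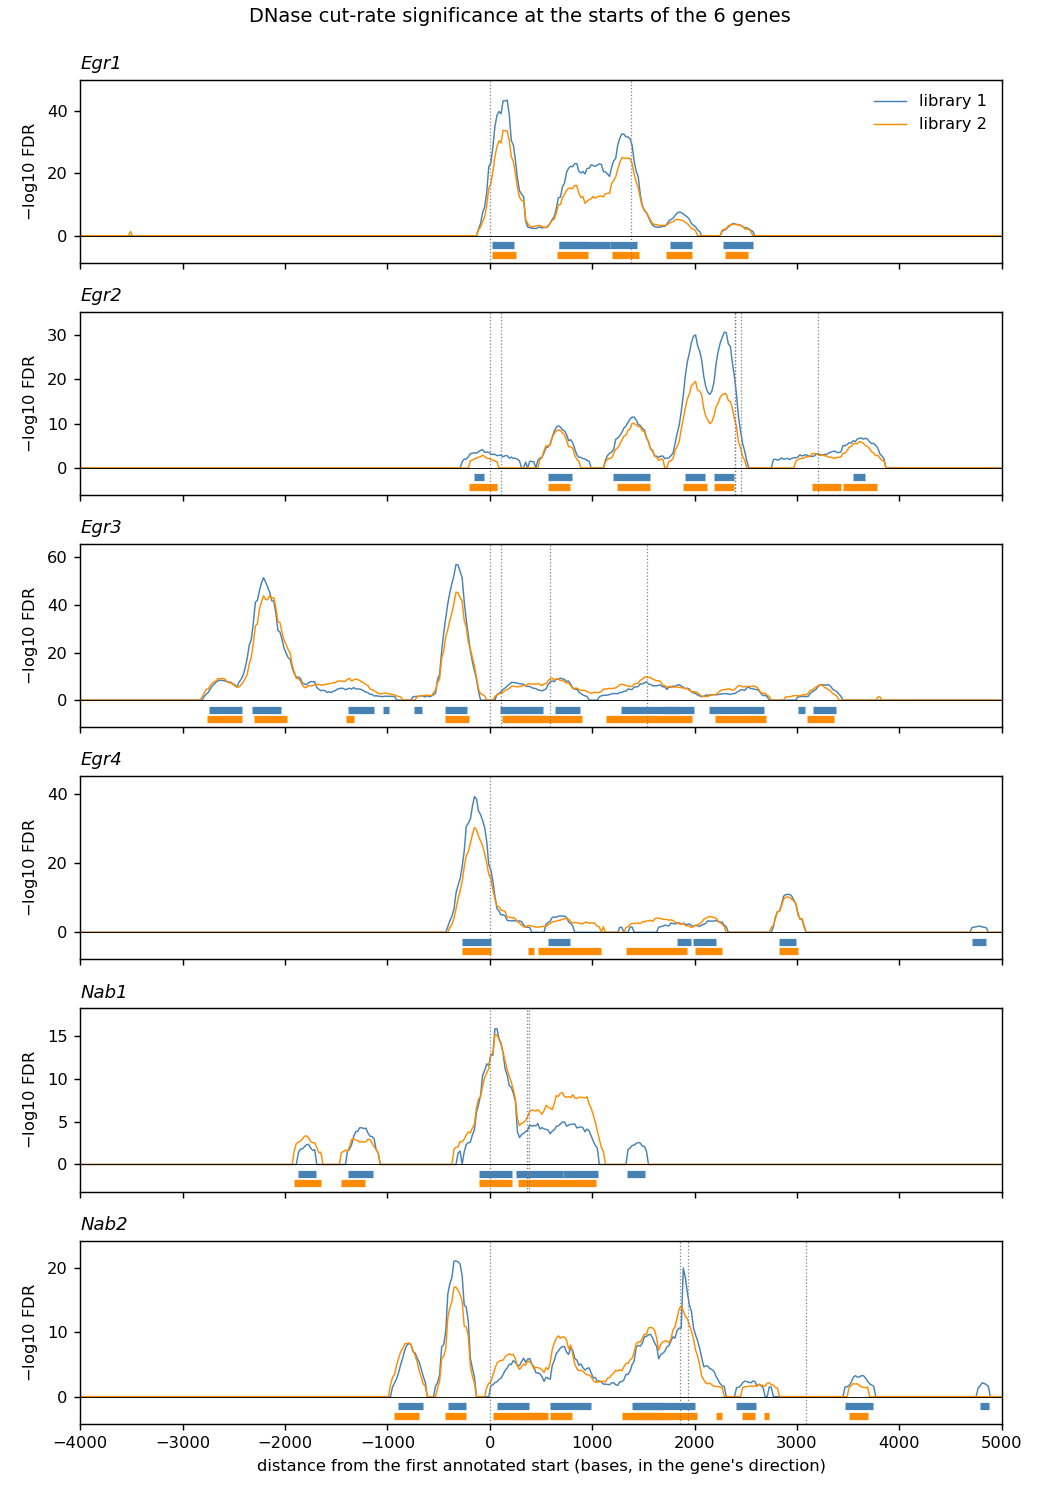
Highest −log10 of the deposited per-base false discovery rate (FDR) of cutting in bins of 20 bases (y axis, linear; bases not listed are drawn at 0) against the distance in bases from the first annotated start in the direction of the gene (x axis), for library 1 (blue) and library 2 (orange); bars below 0 are the peaks of each library and dotted lines the annotated starts. Egr1 and Egr2 have several summits that lie at the same distances in both libraries, Egr4 has 1 main summit, and Egr3 has a second summit 2.2 kb upstream of its start.

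The per-base rates of cutting, a separate deposited file, ordered the genes differently. The share of promoter bases listed with an FDR under 0.05 was 80.7% in library 1 and 80.6% in library 2 for Egr1. It was 88.6% and 96.6% for Egr3 and 79.0% and 86.6% for Egr4. For Egr2 it was 78.9% and 58.3%, the widest gap between the libraries among the 6. Nab2 had 65.3% and 66.9% and Nab1 34.0% and 36.7%. The median gene with a promoter peak had 33.3% and 37.4%, so 5 of the 6 were above it in both libraries and Nab1 was close to it. The share runs over all annotated starts of a gene, open or not. At Nab1 the starts 9943 and 33622 bases downstream of the first had no promoter peak in either library. Their windows are counted in its share, with an effect that was not measured. Egr2, below the median open promoter by peak signal, stood at percentile 88.9 and 73.4 by this share, and Nab2 at 82.0 and 78.4. The lowest FDR reached a −log10 of 57.0 and 45.3 at Egr3, 43.5 and 33.8 at Egr1 and 39.1 and 30.2 at Egr4. It reached 30.6 and 19.5 at Egr2, 21.2 and 17.1 at Nab2 and 15.8 and 15.1 at Nab1, with library 1 above library 2 in all 6. By both the share and the lowest FDR Egr3 came first, whereas peak signal put Egr1 first.

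Footprints are listed by the authors at a q-value of 0.01. Nab2 had the most in its promoter peaks, 19 in library 1 and 26 in library 2. Egr1 had 15 and 16, Egr2 14 and 19, Egr3 12 and 16, Nab1 8 and 14 and Egr4 5 and 10, against a median of 5 and 6 for genes with an open promoter. These totals run over all promoter peaks of a gene and rise with their number. Nab2 had 6 and 9 promoter peaks and Egr4 1 and 3, against a median of 2 in each library. Of 25 promoter peaks of the members in library 1, 21 held a footprint, against 79.6% of all promoter peaks, and 26 of 28 in library 2, against 81.8%. The positions repeated in part: of the library 1 footprints, 14 of 15 at Egr1, 9 of 14 at Egr2, 9 of 12 at Egr3, 4 of 5 at Egr4, 6 of 8 at Nab1 and 13 of 19 at Nab2 overlapped a footprint of library 2. Library 2 lists more footprints in all, 323715 against 271439.

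Motif matches were set against all start windows of 1001 bases and searched on both strands. The EGR letters GCGNGGGCG were in 12.8% of such windows and CArG in 4.18%. The full CRE, TGACGTCA, was in 2.85%, and the CRE-like letters ACGTCAC, which a full CRE followed by C also holds, in 6.91%. EGR matches lay in promoter peaks of Egr1, Nab1 and Nab2 in both libraries, and in footprints there in all 3. Over the 13956 genes with an open promoter, 16.1% had an EGR match in a promoter peak of both libraries and 8.46% in a footprint there. Such shares of genes, here and for the other motifs, are not matched for the bases in promoter peaks. In libraries 1 and 2 these were 1480 and 1060 at Egr1, 1116 and 1080 at Nab1 and 1890 and 2385 at Nab2. The medians of genes with an open promoter were 400 and 440. The only EGR match in a start window of Egr4 was outside its promoter peaks, and Egr2 and Egr3 had none in their start windows. Nab1 had 5 in 1 start window, and 36 genes (0.164%) had 5 or more. Of the 9 EGR matches in start windows of the members, 6 overlapped a match to GGGCGG, the SP and KLF element, so the letters alone do not tell these factor families apart.

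CArG matches divided the 6 genes differently. They lay in promoter peaks of Egr1, Egr2 and Egr3 in both libraries and in none of Egr4, Nab1 or Nab2. Of the 13956 genes with an open promoter, 1.25% had one in a promoter peak of both libraries, and 10.8% of all protein-coding genes had one in a start window. Counting a match as in a footprint where its middle was, no member had one in a footprint of both libraries, and the Egr3 match lay in a footprint of library 2 alone. By that count 0.0860% of genes with an open promoter had one. Counting any base of the match, 1 member had one, Egr2, whose downstream match was touched by a footprint in both libraries, against 0.258% of genes. No member promoter peak held a full CRE, and all 4 Egr genes held ACGTCAC in a promoter peak and a footprint of both libraries, while Nab1 and Nab2 had none. The share of genes with an open promoter was 8.01% for a peak and 4.76% for a footprint; since these letters were chosen from the Egr promoters, the count of members is a description. GGGCGG lay in promoter peaks of 5 members in both libraries, all but Egr4, and in those of 71.3% of genes with an open promoter.

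Away from the starts, Egr3 had the strongest peak. The peak 2182 bases upstream of its first start had a signal of 4.24 in library 1 and 4.62 in library 2, a mean of 4.43 ± 0.272. That is percentile 99.4 of the 74641 matched peak pairs away from starts, and it overlapped the range of the Egr3 promoter peak. It held 6 footprints in library 1 and 9 in library 2, against 4 and 4 in the promoter peak. The next peaks of the Egr3 window, 19.3 and 19.1 kb downstream of the start, had means of 1.57 ± 0.380 and 1.34 ± 0.400.

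In the Nab2 window, a peak in an intron of Nemp1 6.3 kb upstream had 3.97 in library 1 and 3.70 in library 2, a mean of 3.83 ± 0.189 and percentile 99.0. It exceeded the Nab2 promoter in both libraries. A peak 26.6 kb downstream had 2.65 and 3.13, a mean of 2.89 ± 0.339 and percentile 97.2. This peak lay 946 bases from a start of Stat6, the nearest protein-coding gene. Neither held a match to the motifs searched.

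The strongest peaks of the Egr1 window away from starts lay outside genes. The peak 27.7 kb downstream of the first start had 2.51 in library 1 and 3.13 in library 2, a mean of 2.82 ± 0.435 and percentile 97.0. Upstream, peaks at 4.4 and 9.5 kb had means of 2.51 ± 0.0330 and 2.23 ± 0.124. The second of these held a CTCF match in a footprint of both libraries. The peak next to it, 9952 bases upstream, had 1.97 in library 1 and 2.46 in library 2, a mean of 2.22 ± 0.344, and was not separated from it beyond the spread. This neighbouring peak held a full CRE, in a footprint of library 2 alone.

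The other genes had weaker peaks away from starts. In the Egr2 window the strongest was 43.2 kb upstream, with 2.27 in library 1 and 2.12 in library 2, a mean of 2.19 ± 0.112. In the Egr4 window it was 2.9 kb downstream of the start, just past the end of the gene, with 1.83 and 2.04, a mean of 1.94 ± 0.149. In the Nab1 window it was in an intron of Nab1 35.1 kb downstream of the start, with 1.71 and 1.12, a mean of 1.42 ± 0.414; in library 1 it equalled the Nab1 promoter.

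**Figure D3:**
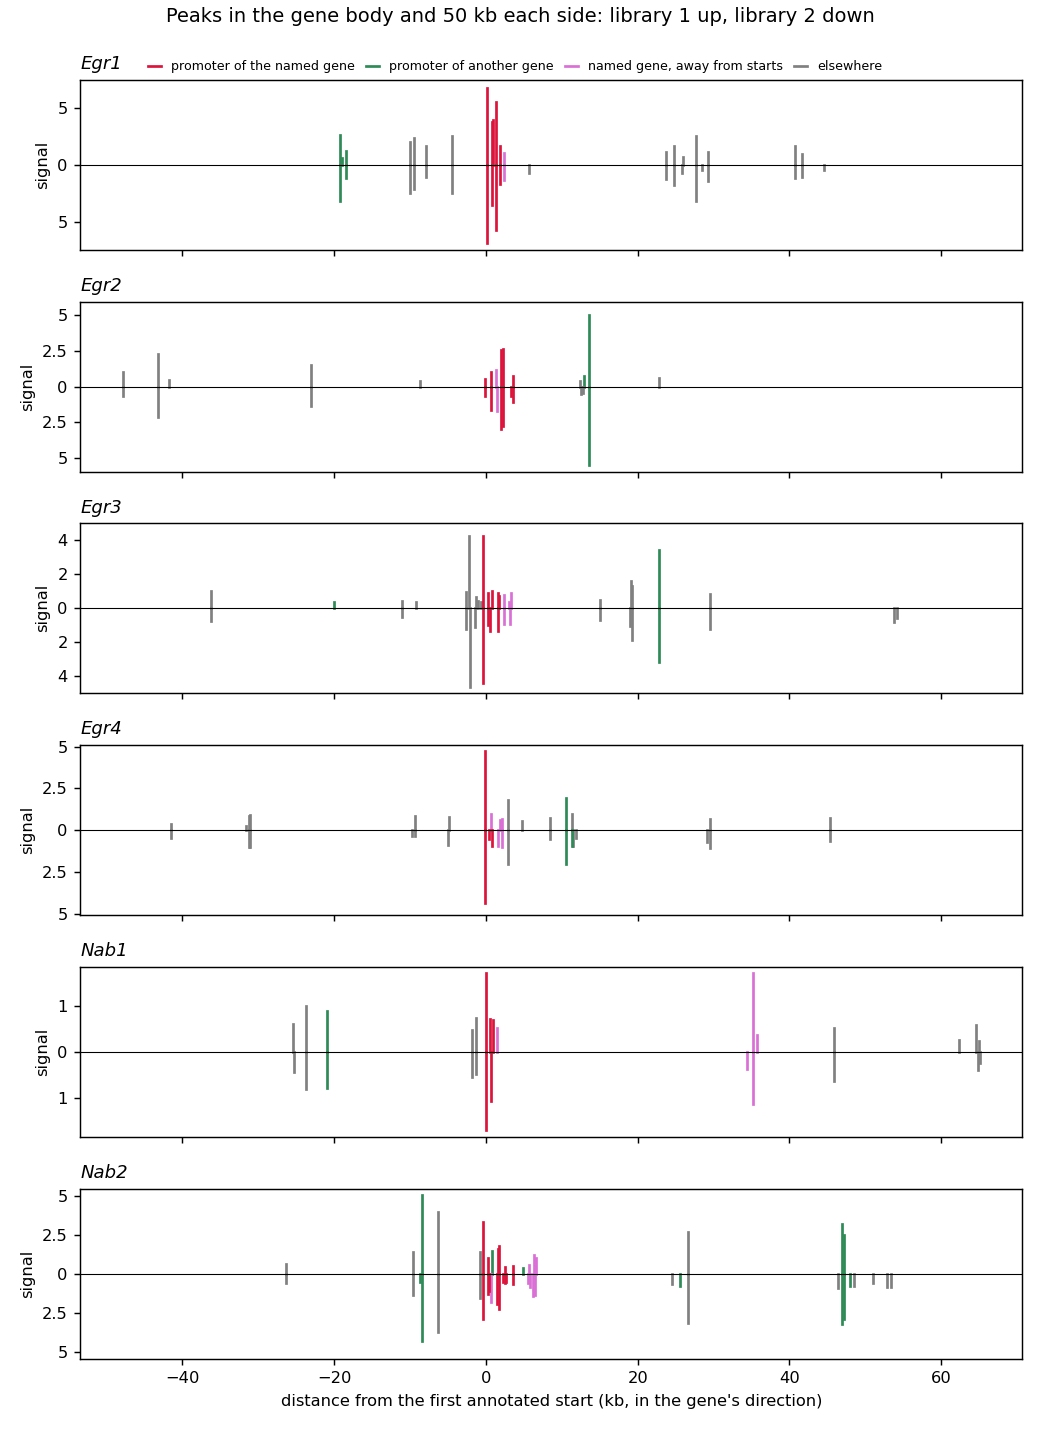
Every peak in the gene body and 50 kb each side, placed by its distance from the first annotated start (x axis, kb, in the direction of the gene), with its signal as the length of the line (y axis, linear, scaled per gene), library 1 upward and library 2 downward; colours mark promoters of the named gene, promoters of other genes, the rest of the named gene and all other places. At Egr1 and Egr4 the promoter peaks are the tallest of the window, at Egr3 the peak 2.2 kb upstream is as tall as the promoter, and at Egr2 and Nab2 a promoter of another gene is the tallest.

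The windows held 20 peaks in library 1 and 21 in library 2 for Egr1, 15 and 13 for Egr2 and 22 and 18 for Egr3. They held 17 and 20 for Egr4, 15 and 12 for Nab1 and 19 and 31 for Nab2. Against the 200 protein-coding genes of nearest span, Egr1 stood at percentile 94.3 and 92.5, Egr3 at 96.8 and 86.5, Egr4 at 88.5 and 90.5 and Nab2 at 89.8 and 97.0. Egr2 stood at 82.8 and 72.0 and Nab1 at 72.0 and 52.5. All 6 were thus at or above the middle of genes of like span in both libraries.

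Neighbouring genes had promoter peaks of their own. Ado, a thiol dioxygenase gene, had the strongest peak of the Egr2 window, with a promoter signal of 5.03 in library 1 and 5.51 in library 2, a mean of 5.27 ± 0.337 and above Egr2 in both. Nemp1 had 5.04 and 4.33 at its own strongest promoter peak, a mean of 4.69 ± 0.505, above Nab2 in both. Kdm3b, a histone demethylase gene near Egr1, had a mean of 3.28 ± 0.225 at a start outside the window, and Reep2 2.89 ± 0.384, both below Egr1 in both libraries. Bin3, near Egr3, had 3.31 ± 0.212, and Fbxo41, near Egr4, 1.97 ± 0.0731. Cct7, a chaperonin subunit gene with a start in the Egr4 window, had 9.17 ± 0.973, at a start outside that window. In the Nab2 window Lrp1 had 3.21 ± 0.00845, Stat6 no promoter peak in library 1 and 0.814 in library 2, and Myo1a none in either. No other protein-coding gene starts in the Nab1 window.

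The libraries shared most of the peaks in the 6 windows. Of 108 peaks in library 1, 93 (86.1%) overlapped a peak of library 2 by at least 1 base, against 77.8% of all library 1 peaks, and of 115 in library 2, 92 (80.0%) overlapped one of library 1, against 73.2%. All 25 promoter peaks of library 1 were shared, as were 24 of 28 of library 2. The share over all promoter peaks was not counted, so these counts are a description of the members alone. Peaks without a partner were weaker than shared ones: their median was 0.388 in library 1, where that of shared peaks was 1.03, and 0.604 in library 2, where that of shared peaks was 1.20. The median of all peaks in the genome was 0.640 in library 1 and 0.641 in library 2, so in library 2 the unshared peaks were near it. Nab2 held 11 of the 23 unshared peaks of library 2. Over 86 pairs of mutually strongest overlapping peaks, the median log2 ratio of library 2 to library 1 was 0.13 with an SD of 0.37, and 1 pair (1.16%) differed more than 2-fold. Over the 99347 pairs of the genome these were 0.09, 0.40 and 1.59%.

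**Figure D4:**
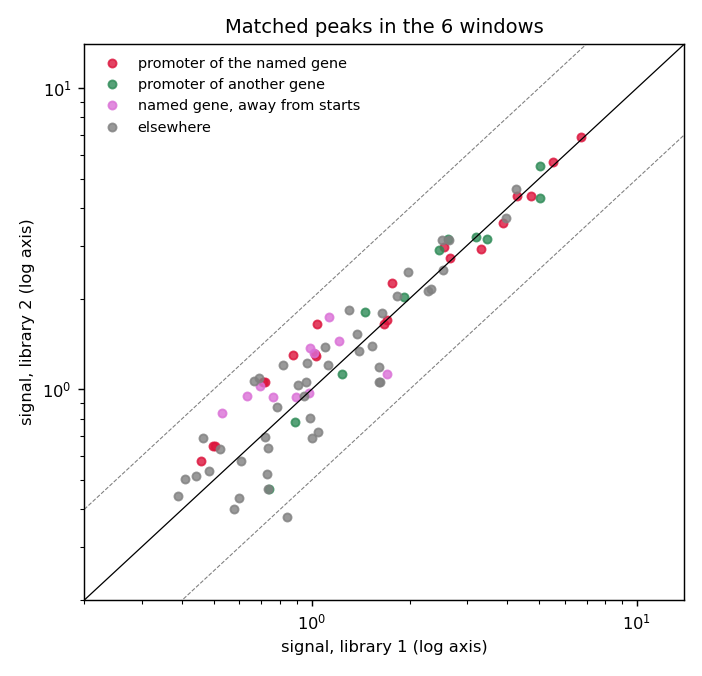
Signal in library 2 (y axis, log scale) against library 1 (x axis, log scale) of the 86 matched peak pairs in the 6 windows, coloured by place; the solid line marks equal signal and the dashed lines a 2-fold difference. 1 pair, a weak peak 9.4 kb upstream of Egr4 with 0.837 and 0.376, lies outside the dashed lines.

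Base composition was measured beside the motif counts, and its part in them was not tested. The promoter windows of the members were 61.7% GC for Egr1, 60.4% for Egr2, 64.5% for Egr3 and 65.9% for Egr4, and 53.6% for Nab1 and 58.8% for Nab2, against a median of 53.5% over the 13956 genes with an open promoter. Their ratio of observed to expected CpG ran from 0.560 at Nab2 to 0.836 at Egr4, against a median of 0.533. Egr3 and Egr4 were the members richest in GC. These values run over all start windows of a gene and not over the peaks that hold the motif matches.

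Genes that act with the family were summarised by their strongest promoter peak. The 10 upstream activators (SRF, CREB and their partners and kinases) all had a promoter peak in both libraries, with a median of 4.19 ± 0.241 over the libraries. Mrtfa, the gene of an SRF coactivator, was highest at 7.97 and Elk3, an ETS partner of SRF, lowest at 0.505. The 8 other immediate early transcription factor genes also all had one, with a median of 3.83 ± 0.121, from Junb at 6.35 to Atf3 at 2.20. Egr1 was thus above Junb, and Nab1 below Atf3. Fos, an immediate early gene of the AP-1 family, had a mean of 2.90 ± 0.150, near Egr2.

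Genes of factors with like GC-rich elements had a median of 6.29 ± 0.399, with Sp1 highest at 9.12. Wt1, whose protein reads an element like that of EGR1, had no promoter peak in either library, and the other 5 of the 6 had one in both. The 6 genes listed as Egr1 or Egr3 targets in neurons all had one, with a median of 4.45 ± 0.262. Arc, the synaptic plasticity gene, was highest at 6.39 and Gabra4, a GABA receptor subunit gene, lowest at 1.80. The 5 Egr2 targets of Schwann cells all had one too, with a median of 1.55 ± 0.0714 and Gjb1, a connexin gene, lowest at 0.311. The median over all 21938 genes, 0 where none was found, was 1.31 in library 1 and 1.55 in library 2.

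The tissue label was checked by marker genes. All 5 markers of cortical excitatory neurons and all 4 pan-neuronal markers had a promoter peak in both libraries, as did 4 of 5 of inhibitory neurons, 3 of 4 of astrocytes, 1 of 4 of oligodendrocytes, 2 of 4 of endothelium and 0 of 4 of microglia. Aqp4, Mog, P2ry12, Csf1r and Pecam1 were among those listed in neither. Over all protein-coding genes the share with a promoter peak in both libraries was 63.6%, so high counts in lists this short say little of cell type. The 3 Schwann cell markers are also in the target list above and had one in both, and of 5 control genes of other organs none did. The signal did not follow these counts: the excitatory markers had a median of 1.53 ± 0.0608, below the 3.37 ± 0.0488 of the Schwann cell markers, the 3.37 ± 0.0750 of the pan-neuronal markers and the median open promoter. A promoter can be open in cells that do not use it, and the share of each cell type was not measured.

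For each Egr gene the 3 most like genes were found by distance over 8 measures, 4 in each library, (promoter signal on the log2 scale, width of promoter peaks, footprints in them and peaks in the window), scaled and ranked over the 13955 other genes open at a start in both libraries. Nearest to Egr1 were Taok3 at 0.938, Tef at 1.04 and Mapre2 at 1.10. Nearest to Egr3 were Brd2 at 0.772, Elavl2 at 1.38 and Arhgap22 at 1.39, and to Egr4 Sh3bp4 at 0.641, Cdkn1b at 0.667 and Pcdhgc3 at 0.720. Nearest to Egr2 were Klhdc8b at 1.07, Fscn1 at 1.11 and Mpdz at 1.24. No other member was among the 3 nearest of Egr1, Egr2, Egr3 or Egr4, and Nab1 and Nab2 were not used as queries: Egr2 ranked 499 from Egr1 and Egr4 ranked 3793, and Egr1 ranked 222 from Egr3. From Egr4 the other members ranked far down, from Nab1 at 9938 to Nab2 at 13819 of 13955. These distances are a description that rests on the 2 libraries.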

How the data were processed

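DNase-seq of 2 libraries of 1 group was used through files mapped to mm10. The peak lists (132054 and 139799 peaks), made by the authors for each library from its own alignments per the file headers, carry a deposited signal whose scaling is not stated. Footprints are deposited with the authors' q-value of 0.01, and per-base false discovery rates of cutting are deposited as p-value-like numbers under 0.05. For the aligner and the peak caller, names were not given in the sources used here, and sequencing depth is unknown.

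Peaks were assigned with Python 3 scripts (numpy 2.4.6, pandas 2.3.3, matplotlib 3.10.9), tested on simulated data. A promoter peak overlapped a base within 500 bases of a start, a shared peak overlapped at least 1 base of the other library, and a motif was in a footprint if its middle was. All 6 genes, their promoter peaks, the 3 strongest shared peaks away from starts per gene, up to 3 neighbours, 3 like genes and the ends of each list were named, except for some items that are not reported here. Likeness was the Euclidean distance over scaled measures. The design has 1 group, so no groups were compared and no p-value was computed; values are mean ± SD over 2 libraries. The members, lists and rules were chosen with earlier results of these data known. The CTCF consensus and ACGTCAC were added after the data were seen. Mrtfa stands in older lists as Mkl1. RefSeq promoter entries were found for 4 members and were equal to the genome in 8 of 8 cases.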

Additional observations from a re-analysis of the deposited data

How the results depend on the processing

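No paired analysis was possible because there is 1 group. All 6 members had a promoter peak in both libraries with promoters of 250 or 2000 bases, the shorter peak lists and coding transcripts alone. Leaving out 1 of 2 libraries moves a mean by less than their SD whatever the values, so it says nothing of stability and is not counted here. Of 37 other alternative values of the main results, 25 stayed within the SD between libraries, for counts within 1.5 times, and for shared percentages within the exact 95% binomial interval, and 12 moved; of 48 for single genes, 30 stayed and 18 moved. The median promoter signal of 3.74 became 8.24 when all promoter peaks of a gene were summed, with overlapping peaks each counted in full. Without replicate 1 or 2 the median ranged from 3.68 to 3.80. The 111.5 window peaks (mean of the libraries) became 70.0 with a flank of 10 kb and 38.5 in the gene body alone. The shared percentages of 86.1 (78.1 to 92.0) and 80.0 (71.5 to 86.9) became 67.6 and 62.6 when 50% of both peaks had to overlap, and library 2 reached 87.1 with a 10 kb flank. The 67.2% of promoter bases under an FDR of 0.05 became 60.8% at 0.01, 52.2% at 0.001, 71.7% within 250 bases and 44.0% within 2000 bases. Members with a CArG match in a footprint ranged from 0 to 1 with 1 library left out, and numbered 1 when any base of the match counted, an alternative added after the data were seen. Those with a GGGCGG match in one fell from 5 to 3 when the whole match had to lie inside. Counted by the middle of the match, 45.0% of genes with an open promoter had one in both libraries. The files give no read depth, so no interval for counting reads could be given for the signals.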

Other observations

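The arrangement shared by the Egr2 and Egr3 peaks was looked for in all protein-coding genes after it had been seen, so the counts describe these sequences and are no test. A CArG match and ACGTCAC on either strand stood within 30 bases of each other, overlaps included, in 1 start window of 14 of 21938 genes (0.0638%). Egr1, Egr2 and Egr3 were 3 of the 14. The others included Dusp5, which codes for a MAP kinase phosphatase, Ebf3 and Trip6. Exactly 6 bases lay between the matches in 4 genes: Egr1, Egr2, Egr3 and Dusp5. In Egr1, as in Egr2, the ACGTCAC letters of this arrangement lay in a footprint of both libraries.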
